A study of Mus musculus with 16 samples.

Results

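The 40 genes described here encode the machinery that builds the mitotic spindle, attaches chromosomes to it, checks the attachment, starts anaphase and divides the cell. They were chosen by name as a set of spindle, kinetochore and cytokinesis genes, with earlier results of these data known. All 40 were found among the 23100 genes of the count table. RNA was sequenced from mouse embryonic fibroblasts, connective tissue cells cultured from C57BL/6 embryos at E13.5 in DMEM with 10% FBS. There were 4 cell lines, 2 wildtype (Zac+/+) and 2 mutant (Zac+/-) for Zac1, the imprinted zinc finger transcription factor gene now named Plagl1, which is expressed from the paternal copy. Every line was harvested at day 2 in vitro, labelled proliferative, and at days 8, 10 and 12, labelled quiescent, so that each of the 8 pairings of genotype and day holds 2 libraries, 16 in all. The allele sits in every cell of a mutant line, and the labels name no promoter or Cre that would limit it to a cell type. The labels do not say whether the 2 lines of a genotype came from separate embryos, so p-values measure the spread between these lines, which may be partly technical.

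In a dividing cell, cyclin B and Cdk1 drive entry into mitosis, the Aurora and Polo-like kinases shape the spindle, and the Ndc80 complex of the kinetochore grips its microtubules. The spindle checkpoint holds back the anaphase-promoting complex (APC/C), the ubiquitin ligase that destroys securin and cyclin B, until every chromosome is attached, and the central spindle then directs cytokinesis. Transcription of these genes rises in G2 and mitosis and is repressed in resting cells, and the DREAM complex, whose MuvB core binds the cell cycle genes homology region (CHR), and the transcription factors B-Myb and Foxm1 are known regulators of the class.

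Promoters are shown first because the class is known for these CHR elements and for CCAAT boxes. RefSeq promoter sequences (build GRCm38.p6, 250 bases before to 50 after each start) were at hand for 33 of the 40 genes, in 35 promoters, since Ect2 and Prc1 have 2 each. Tpx2, Incenp, Foxm1, Aurkb, Spc24, Ccna2 and Kif20a had no entry. A CHR was counted on either strand as the letters TTTGAA or else as the letters TTCGAA, and was in 80.0% of the 35 promoters and in 19.2% of all 32851 promoters of the table. CCAAT was in 77.1% against 37.4%, at least 2 copies of it in 51.4% against 11.7%, and both words together in 71.4% against 7.52%. An E2F word was counted as the letters TTCCCGC, as the letters TTGGCGC, as the letters TTCGCGC or as the letters TTGCCGC, and was in 17.1% against 9.57%. Over the 15507 promoters of genes tested at quiescence the shares were 14.3% for CHR, 37.3% for CCAAT and 15.4% for E2F, so the E2F share of the set is near that background. In the 42 promoters found for 36 of 45 DNA replication genes, used below as a comparison list, the order was turned round, with CHR in 16.7% and E2F in 61.9%. The words were not particular to the 40 genes. In 82 promoters found for 73 of 88 further mitotic genes, also listed below, CHR was in 58.5% and CCAAT in 65.9%. Both words together were in 41.5% of these 82 and an E2F word in 29.3%. TTCGAA reads alike on both strands and was counted once, and an E2F word can overlap a CCAAT box, as it did in Ccnb1. These are letter matches, with no test and no evidence of binding.

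Among the genes whose values are given below, 6 that hold both words are printed 5′ to 3′ in the direction of the gene, with CHR and CCAAT matches on either strand in capitals. They are Aurka chr2:172370521-172370820 (minus strand), Ccnb2 chr9:70421505-70421804 (minus strand), Cdc20 chr4:118437294-118437593 (minus strand), Ube2c chr2:164769679-164769978 (plus strand), Racgap1 chr15:99651607-99651906 (minus strand) and Top2a chr11:99024140-99024439 (minus strand). The CHR began 33 bases after the start in Aurka, 18 before it in Cdc20, 29 before it in Ube2c, 6 after it in Racgap1 and 5 after it in Ccnb2, which holds another further upstream. Top2a held 4 CHR and 6 CCAAT matches, and Ube2c 6 CCAAT matches.
Aurka: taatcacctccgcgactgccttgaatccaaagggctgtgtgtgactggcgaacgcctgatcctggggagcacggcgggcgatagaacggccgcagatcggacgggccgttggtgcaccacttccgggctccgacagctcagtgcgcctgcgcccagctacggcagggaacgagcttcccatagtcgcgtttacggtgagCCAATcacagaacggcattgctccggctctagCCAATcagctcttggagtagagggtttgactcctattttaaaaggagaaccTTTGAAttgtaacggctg
Ccnb2: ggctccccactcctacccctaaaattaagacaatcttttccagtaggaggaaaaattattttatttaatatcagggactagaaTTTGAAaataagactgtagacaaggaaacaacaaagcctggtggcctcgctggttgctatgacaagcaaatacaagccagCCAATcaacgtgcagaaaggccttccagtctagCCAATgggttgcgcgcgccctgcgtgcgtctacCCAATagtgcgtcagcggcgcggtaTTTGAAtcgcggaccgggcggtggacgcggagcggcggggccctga
Cdc20: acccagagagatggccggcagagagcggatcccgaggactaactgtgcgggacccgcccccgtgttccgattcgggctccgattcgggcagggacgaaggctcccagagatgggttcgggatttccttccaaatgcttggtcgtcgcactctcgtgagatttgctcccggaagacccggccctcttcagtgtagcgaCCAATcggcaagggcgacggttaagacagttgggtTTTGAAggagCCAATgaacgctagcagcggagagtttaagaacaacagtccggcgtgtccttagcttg
Ube2c: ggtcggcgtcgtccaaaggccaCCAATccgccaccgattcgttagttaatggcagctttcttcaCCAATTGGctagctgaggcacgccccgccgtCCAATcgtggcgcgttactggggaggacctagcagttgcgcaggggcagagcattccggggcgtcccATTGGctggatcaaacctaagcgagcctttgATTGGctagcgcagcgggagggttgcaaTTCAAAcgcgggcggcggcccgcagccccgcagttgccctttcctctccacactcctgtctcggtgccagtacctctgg
Racgap1: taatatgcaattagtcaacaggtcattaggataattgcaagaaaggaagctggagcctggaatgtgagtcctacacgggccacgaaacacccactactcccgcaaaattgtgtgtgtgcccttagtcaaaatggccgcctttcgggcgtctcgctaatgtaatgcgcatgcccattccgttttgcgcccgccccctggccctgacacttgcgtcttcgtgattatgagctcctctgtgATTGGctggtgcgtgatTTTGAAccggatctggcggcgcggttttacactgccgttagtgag
Top2a: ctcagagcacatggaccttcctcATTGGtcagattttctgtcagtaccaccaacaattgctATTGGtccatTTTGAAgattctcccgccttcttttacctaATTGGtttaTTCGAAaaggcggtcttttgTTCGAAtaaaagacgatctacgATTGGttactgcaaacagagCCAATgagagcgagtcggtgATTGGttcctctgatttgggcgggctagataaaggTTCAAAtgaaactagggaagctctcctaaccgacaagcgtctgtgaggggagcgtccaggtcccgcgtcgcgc

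A further 5 genes, Birc5, Nuf2, Nusap1, Mad2l1 and Plk4, held neither word in this window. Sequence outside the window was not searched, so these genes may hold the words nearby. Birc5 and Nuf2 are printed for contrast, with no match to set in capitals. They lie at Birc5 chr11:117848987-117849286 (plus strand) and Nuf2 chr1:169531415-169531714 (minus strand), and Birc5 is also the gene with the largest fall in wildtype cells.
Birc5: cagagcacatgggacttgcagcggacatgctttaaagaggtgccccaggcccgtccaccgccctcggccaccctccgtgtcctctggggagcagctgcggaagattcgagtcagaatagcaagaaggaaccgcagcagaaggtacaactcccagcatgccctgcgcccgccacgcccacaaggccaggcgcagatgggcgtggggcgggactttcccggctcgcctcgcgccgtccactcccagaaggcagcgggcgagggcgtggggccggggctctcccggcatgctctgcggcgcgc
Nuf2: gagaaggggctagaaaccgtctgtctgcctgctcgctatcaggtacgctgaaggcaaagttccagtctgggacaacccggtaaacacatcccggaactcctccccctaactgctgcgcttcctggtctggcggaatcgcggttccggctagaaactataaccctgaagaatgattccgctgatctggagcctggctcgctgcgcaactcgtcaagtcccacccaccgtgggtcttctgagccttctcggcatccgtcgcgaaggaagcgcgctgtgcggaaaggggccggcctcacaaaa

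At quiescence every one of the 40 genes fell in both genotypes. In wildtype lines the median log2 change was -2.20, a 4.58-fold fall, and single genes ranged from -2.74 (Birc5, 6.70-fold) to -1.36 (Spc25, 2.57-fold). In mutant lines the median was -1.95, a 3.87-fold fall, from -2.61 (Aurka) to -1.12 (Spc25). The comparison set the day 2 library of each line against the sum of its 3 quiescent harvests. With edgeR's quasi-likelihood test all 40 were called lower in wildtype lines, where 23.7% of 15740 tested genes were called lower, and all 40 in mutant lines, where 21.0% were. Adjusted p ran from 6.06e-07 to 0.000511 in wildtype and from 8.61e-07 to 0.00114 in mutant lines, and the median over all genes was 0.05 in each. Both counts were 40 under each of the 17 alternatives run. The 2 states of a line entered the fit as if independent. In RNA from a whole culture, fewer cells of a type and less RNA per cell cannot be told apart.

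The scale of the fall was similar in each line. Summed over the 40 genes, the level at day 2 was 4510 CPM (counts relative to library size after TMM scaling) in wildtype replicate 1, 4121 in wildtype replicate 2, 3902 in mutant replicate 1 and 3878 in mutant replicate 2. At day 8 the sums were 1281, 1378, 1215 and 1332 CPM, and at day 12 they were 711, 660.4, 604 and 647 CPM. No member was above its own day 2 level in any of the 12 quiescent libraries. At day 8 alone, 31.5% of tested genes lay below their day 2 level within each of the 4 lines. The median member stood at 29.8% to 32.1% of day 2 at day 8, at 20.7% to 26.5% at day 10 and at 15.2% to 16.5% at day 12. CPM are not divided by gene length, so levels are compared between samples and not between genes.

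**Figure D1:**
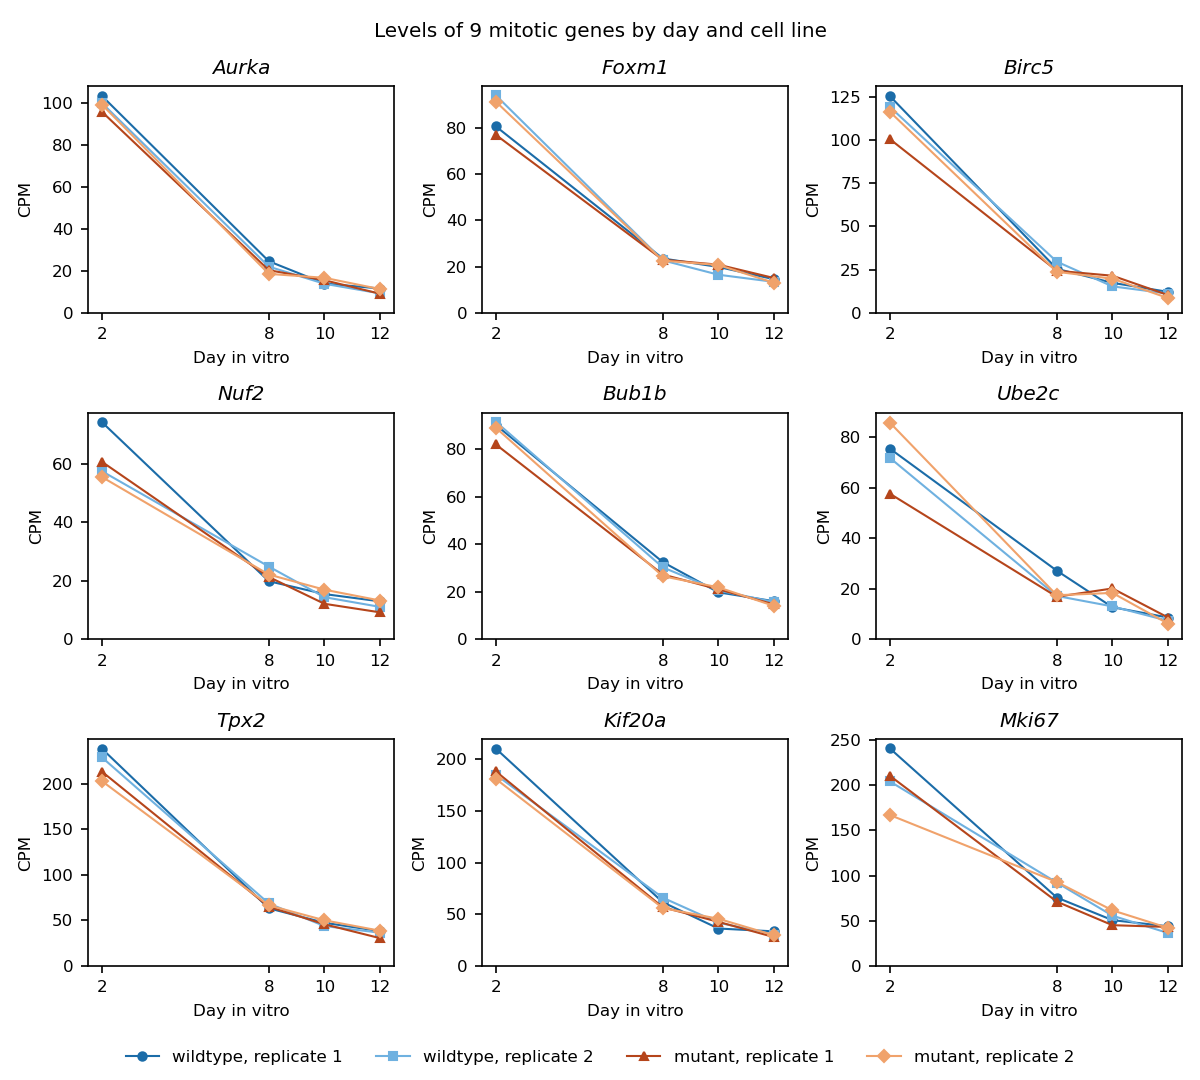
Levels in CPM (y axes, linear, from 0) of 9 of the genes against day in vitro (x axes) in the 4 cell lines (points joined by lines; wildtype blue, mutant orange and red). In each panel the 4 lines fall steeply between days 2 and 8 and end at day 12 below their day 8 values.

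Among the mitotic kinases, the cyclins and Foxm1, all 7 fell in wildtype lines, by a median of -2.28. Aurka, the Aurora A kinase of centrosomes and spindle poles, was at 102 and 99.1 CPM at day 2 and at 16.4 and 14.7 in the quiescent sums of the wildtype lines. In mutant lines it was at 94.9 and 98.8, then 15.8 in each. The levels of the states were far apart in every line, and wildtype Aurka fell 6.46-fold (log2 -2.69, SE 0.11, edgeR adjusted p = 6.06e-07). The fall in mutant lines was 6.12-fold (log2 -2.61, SE 0.11, edgeR adjusted p = 8.61e-07). Ccnb2, cyclin B2, moved least of the 7, from 59.1 and 50.2 to 13.6 CPM in both wildtype lines and from 45.2 and 59.0 to 13.7 and 14.3 in mutant lines. That is still a fall of 4.01-fold in wildtype (log2 -2.0, SE 0.15, edgeR adjusted p = 6.18e-06) and of 3.73-fold in mutant lines. Foxm1, the transcription factor of the group, went from 79.4 and 93.3 to 18.8 and 17.2 CPM in wildtype and from 76.2 and 91.0 to 20.2 and 19.2 in mutant lines (log2 -2.26, SE 0.13, adjusted p = 2.09e-06, and -2.09, SE 0.13, adjusted p = 4.22e-06). Ccnb1 (cyclin B1), Plk1 (Polo-like kinase 1), Cdk1 and Ccna2 (cyclin A2) lay between Aurka and Ccnb2, with wildtype log2 changes of -2.44, -2.39, -2.28 and -2.12.

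The chromosomal passenger complex, which corrects faulty attachments and later guides cytokinesis, fell in all 4 subunits. Birc5 (survivin), which targets the complex to centromeres, was at 123 and 118 CPM in wildtype lines at day 2 and at 17.9 and 18.2 in their quiescent sums. In mutant lines it was at 99.5 and 116, then at 19.9 and 18.2. Its fall of 6.70-fold in wildtype (log2 -2.74, SE 0.12, edgeR adjusted p = 7.05e-07) was the largest of the 40, and in mutant lines it was 5.65-fold (log2 -2.50, SE 0.12, adjusted p = 1.59e-06). The scaffold Incenp moved least, from 73.8 and 95.7 to 25.3 and 22.2 CPM in wildtype (log2 -1.84, SE 0.17, adjusted p = 2.65e-05) and from 67.8 and 91.6 to 24.6 and 23.0 in mutant lines (-1.75, SE 0.17). Cdca8 (borealin) and Aurkb, the catalytic Aurora B kinase, changed by -2.26 and -2.21 in wildtype.

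Kinetochore and centromere genes fell in all 7 cases, by a wildtype median of -1.99. Nuf2, a subunit of the Ndc80 complex, was at 73.1 and 57.0 CPM at day 2 and 15.8 and 16.4 in the quiescent sums of wildtype lines. In mutant lines its levels were 60.1 and 55.3, then 15.0 and 17.8. It fell 4.03-fold in wildtype (log2 -2.01, SE 0.15, edgeR adjusted p = 5.93e-06) and 3.52-fold in mutant lines. The other subunits of that complex gave wildtype changes of -1.99 (Ndc80), -1.54 (Spc24) and -1.36 (Spc25). Spc25 had the smallest fall of the 40, from 43.0 and 32.6 to 14.5 and 14.9 CPM in wildtype (SE 0.17, adjusted p = 0.000139) and from 35.0 and 30.9 to 13.2 and 17.1 in mutant lines (log2 -1.12, SE 0.17, adjusted p = 0.000584). Cenpa, the histone H3 variant that marks centromeres, changed by -2.28, the motor Cenpe by -2.20 and the large coiled-coil protein Cenpf by -1.68.

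In the spindle checkpoint all 4 genes fell. Bub1b (BubR1), part of the inhibitor of the APC/C, was at 88.8 and 90.7 CPM in wildtype and 81.2 and 88.6 in mutant lines at day 2. In the quiescent sums it was at 22.4 and 21.8 in wildtype and 21.9 and 21.4 in mutant lines. The lines agreed closely here, and the fall was 4.07-fold (log2 -2.02, SE 0.10, edgeR adjusted p = 1.39e-06) and 3.92-fold (-1.97, SE 0.10, adjusted p = 2.29e-06). Mad2l1 (Mad2), which binds Cdc20, moved from 95.0 and 82.4 to 22.0 and 22.5 CPM in wildtype (log2 -1.99, SE 0.12) and from 83.3 and 78.3 to 22.5 and 26.2 in mutant lines (-1.73, SE 0.12). The kinases Bub1 and Ttk (Mps1) changed by -2.42 and -2.05 in wildtype.

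The genes of anaphase and mitotic exit also fell, all 4 of them. Cdc20, the activator that the APC/C uses in mitosis, was at 103 and 114 CPM in wildtype and 98.3 and 128.5 in mutant lines at day 2. Its quiescent sums were 24.6 and 22.0 in wildtype and 22.8 and 24.0 in mutant lines, a fall of 4.66-fold (log2 -2.22, SE 0.14, edgeR adjusted p = 3.00e-06) and 4.85-fold (-2.28, SE 0.14, adjusted p = 4.17e-06). In these sums Cdc20 was the 1 gene of the 40 whose fitted fall was larger in mutant than in wildtype lines, by a difference of -0.06 (SE 0.19). Cdca3, which triggers mitotic entry through loss of Wee1, had the smallest wildtype change of this group, from 72.7 and 68.2 to 14.8 and 17.1 CPM (log2 -2.15, SE 0.17). In mutant lines it went from 54.3 and 77.0 to 17.9 and 18.9 (-1.84, SE 0.16). Espl1 (separase), the protease that cuts cohesin, and Ube2c, the E2 enzyme of the APC/C, changed by -2.42 and -2.37 in wildtype.

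Spindle motors, assembly factors and the centriole kinase Plk4 fell in all 6 cases. Tpx2, the activator of Aurora A on the spindle, was at 235 and 227 CPM at day 2 and at 48.8 and 48.6 in the quiescent sums of wildtype lines. In mutant lines it was at 211 and 202, then at 49.6 and 52.8, so the states did not overlap (log2 -2.25, SE 0.10, edgeR adjusted p = 7.84e-07, and -2.01, SE 0.10, adjusted p = 1.77e-06). Nusap1, a microtubule-bundling protein, moved least, from 49.4 and 39.2 to 12.9 and 15.5 CPM in wildtype (log2 -1.64, SE 0.18) and from 43.9 and 37.5 to 13.6 and 17.8 in mutant lines (-1.37, SE 0.18). The kinesins gave wildtype changes of -2.39 (Kif2c, which depolymerises microtubules), -2.37 (Kif4, a chromosome-bound motor) and -1.98 (Kif11, which pushes the poles apart), and Plk4, which starts centriole duplication, gave -1.81.

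Cytokinesis genes fell in all 6 cases and within a narrow span, -2.28 to -2.02 in wildtype and -2.05 to -1.90 in mutant lines. Kif20a, a kinesin of the central spindle, went from 207 and 184 to 43.2 and 45.2 CPM in wildtype (log2 -2.14, SE 0.10, edgeR adjusted p = 1.26e-06) and from 186 and 180.3 to 44.7 and 45.0 in mutant lines (-2.03, SE 0.10, adjusted p = 2.11e-06). Racgap1, the GTPase-activating subunit of centralspindlin, moved from 132 and 135 to 32.2 and 33.9 CPM in wildtype (-2.02, SE 0.11) and from 124 and 147 to 36.7 and 35.9 in mutant lines (-1.90, SE 0.11). Its partner Kif23 changed by -2.20 in wildtype, the exchange factor Ect2 that centralspindlin recruits by -2.28, the actomyosin scaffold Anln by -2.27 and the microtubule bundler Prc1 by -2.23.

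Top2a, the topoisomerase that untangles sister chromatids, and Mki67, the Ki-67 antigen that coats mitotic chromosomes and marks proliferating cells, complete the set. Top2a was at 419 and 363 CPM in wildtype and 376 and 318 in mutant lines at day 2, and at 97.1 and 95.5 and at 95.8 and 103 in the quiescent sums (log2 -2.02, SE 0.12, edgeR adjusted p = 2.33e-06, and -1.80, SE 0.12). Mki67 moved from 237 and 202 to 55.9 and 60.1 CPM in wildtype (-1.92, SE 0.15, adjusted p = 9.11e-06) and from 208 and 166 to 54.4 and 67.6 in mutant lines (-1.62, SE 0.15, adjusted p = 3.17e-05). The changes of the 40 genes, fitted over the 2 lines of each genotype, were close in the 2 genotypes (Pearson r = 0.958 across genes). Between single lines the values were 0.578 for the 2 wildtype lines and 0.295 for the 2 mutant lines. Fits over 2 lines carry less noise than single lines, so the first value cannot be ranked against the other 2. These are descriptions across 40 genes that share libraries and are not independent replicates.

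Medians of the fall at quiescence lay close together across promoter words. The 26 genes with a CHR in the promoter window had a median wildtype change of -2.22 and the 7 without one there -2.01. Both sets spanned most of the range, from -2.69 to -1.36 and from -2.74 to -1.64. Sequence outside the window was not searched. For CCAAT the medians were -2.22 (25 genes) and -2.0 (8 genes), and for the E2F words -2.28 (5 genes) and -2.20 (28 genes). No test was made of these splits.

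**Figure D2:**
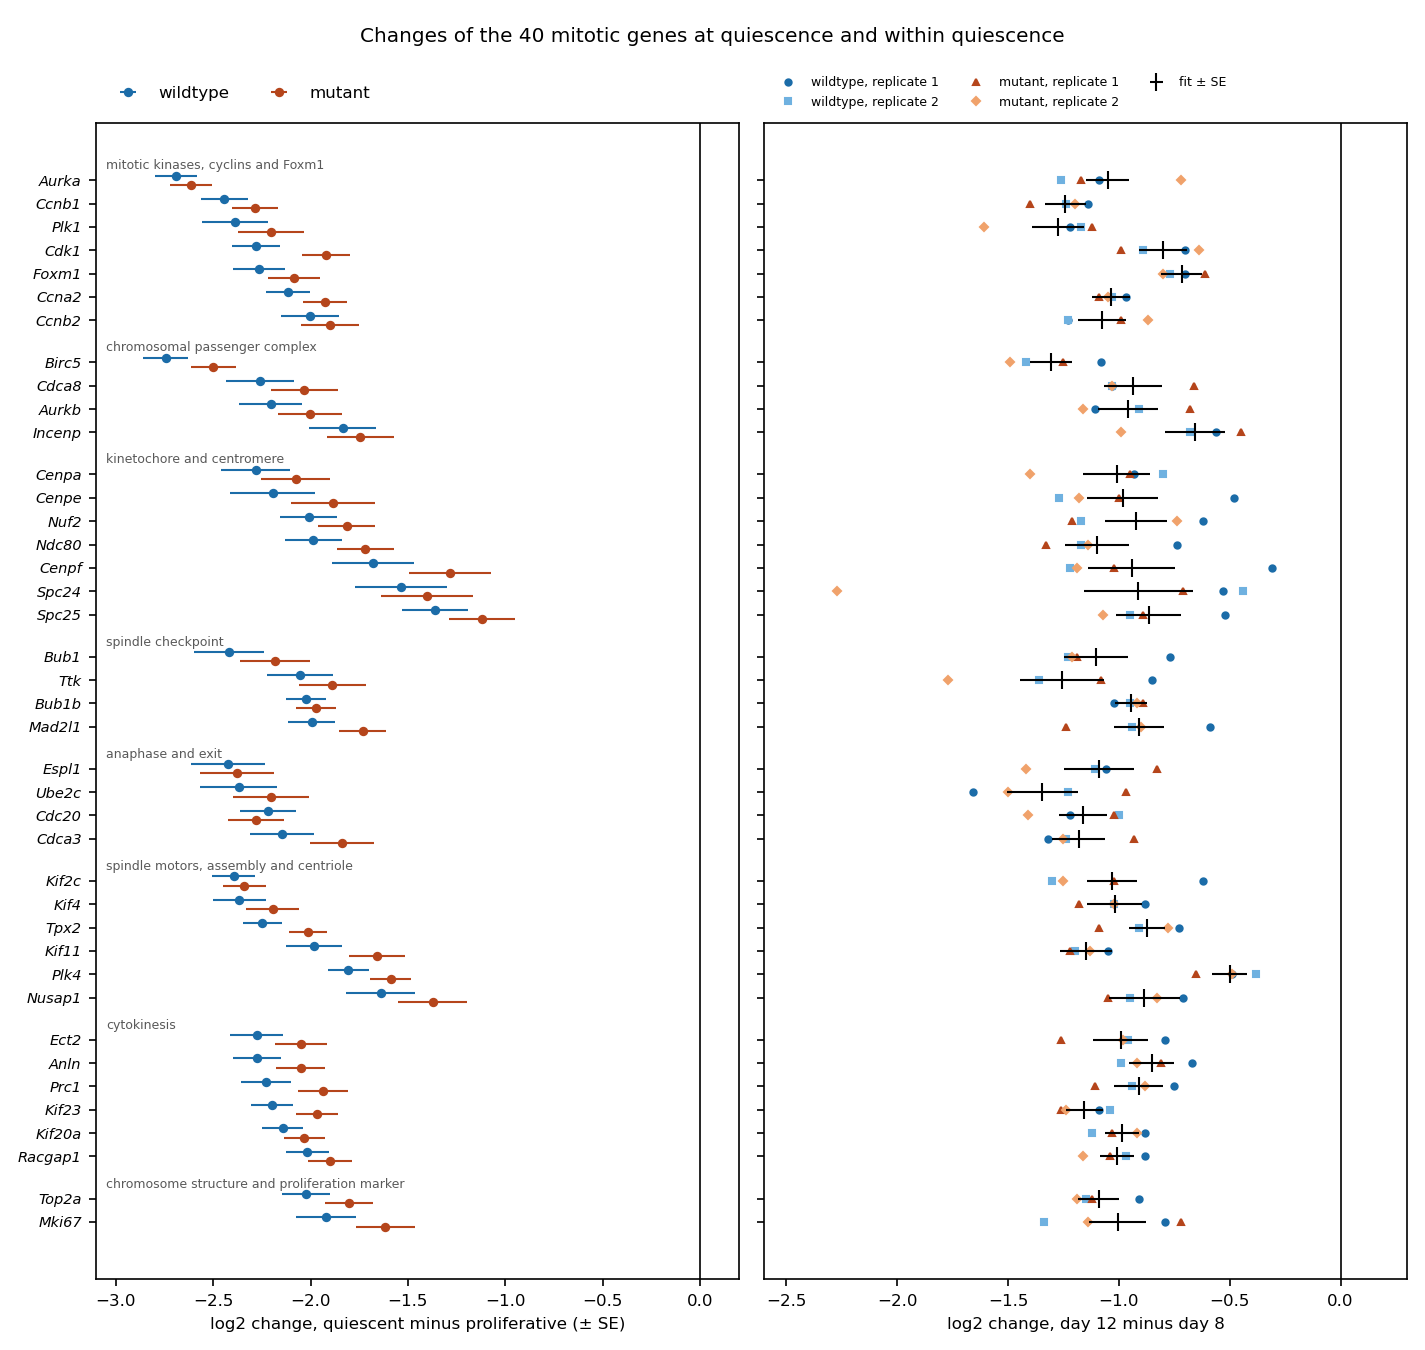
Log2 changes of the 40 genes, grouped by role. Left, quiescent minus proliferative in wildtype (blue) and mutant lines (red) with SE bars, all below 0; right, day 12 minus day 8 in each line (coloured symbols) with the fitted mean and its SE (black), where every point lies left of 0 and Spc24 in mutant replicate 2 lies farthest from the rest.

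The 40 genes kept falling after the cultures had been labelled quiescent. Between day 8 and day 12 the median changed by -1.01 on the log2 scale, a 2.01-fold fall, while the median over all genes was 0.00. With edgeR's test over 16 libraries, 39 of 40 were called lower at day 12, where 2.00% of 15439 tested genes were called lower. The exception was Spc24 (log2 -0.91, SE 0.25, adjusted p = 0.0664), whose day 12 level was 3.95, 3.54 and 3.31 CPM in the first 3 lines and 1.24 in mutant replicate 2. For all 40 genes the 4 values at day 12 lay below all 4 values at day 8, a pattern held by 6.43% of tested genes. Of the 10 smallest p-values among the 15439 genes 7 belonged to the set, and of the smallest 100, 27 did. The set and this comparison were chosen with earlier results of these data known, so these counts describe the data and are no independent support. Blocking on the line gave 40 calls. Without wildtype replicate 2 there were 27, and against a fold change of at least 1.5 there were 16.

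Ube2c had the largest fall of this interval. It stood at 27.1, 17.1, 16.8 and 17.4 CPM at day 8 in wildtype replicates 1 and 2 and mutant replicates 1 and 2, and at 8.61, 7.30, 8.60 and 6.18 CPM at day 12. The ranges were separate, with the highest start in wildtype replicate 1 (log2 -1.34, SE 0.16, edgeR adjusted p = 0.000311). Birc5 followed, from 25.4, 29.5, 24.3 and 23.7 to 12.1, 11.1, 10.2 and 8.44 CPM in the same order (log2 -1.31, SE 0.09, adjusted p = 1.09e-05). It had the smallest p of all 15439 genes. Plk1 went from 24.4, 23.0, 20.6 and 22.6 to 10.5, 10.2, 9.52 and 7.42 CPM (log2 -1.27, SE 0.12, adjusted p = 3.98e-05). Ttk, a low gene, went from 7.54, 11.2, 8.87 and 8.84 to 4.19, 4.33, 4.19 and 2.60 CPM (log2 -1.26, SE 0.19, adjusted p = 0.00154). Ccnb1 had the same SE as Birc5 and moved from 49.4, 51.5, 45.3 and 47.0 to 22.4, 21.8, 17.2 and 20.4 CPM (log2 -1.24, SE 0.09, adjusted p = 1.09e-05).

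The smallest fall between days 8 and 12 was that of Plk4, from 17.6, 17.0, 18.1 and 18.9 to 12.6, 13.1, 11.5 and 13.5 CPM (log2 -0.50, SE 0.08, edgeR adjusted p = 0.0026). Incenp (-0.65, SE 0.14, adjusted p = 0.015) and Foxm1 (-0.72, SE 0.09, adjusted p = 0.000535) came next. Foxm1 was at 23.5, 22.7, 22.9 and 22.6 CPM at day 8 and at 14.5, 13.3, 15.0 and 12.9 at day 12, with all lines close at both days. Mki67 was at 75.7, 92.2, 71.1 and 92.9 CPM at day 8, higher in replicate 2 of each genotype, and at 43.9, 36.4, 43.1 and 42.0 at day 12 (-1.01, SE 0.13, adjusted p = 0.000436). By role, the median was largest for anaphase and exit genes (-1.17) and smallest for the kinetochore (-0.94), a span of medians that was not tested.

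Within each genotype alone the same fall was seen with fewer calls. In wildtype lines 30 of 40 were called lower (background 0.641% of tested genes), with a median of -0.98, and in mutant lines 35 of 40 (background 0.874%), with a median of -1.09. Kinetochore genes were 6 of the 10 not called in wildtype. Those 10 were Nuf2, Cenpa, Cenpe, Spc25, Cenpf, Spc24, Ttk, Plk4, Nusap1 and Incenp. In mutant lines they were Cdca8, Nusap1, Cenpf, Spc24 and Incenp. The wildtype count fell to 0 without either wildtype line, which leaves 1 line assumed to vary like the other groups, and to 9 when only wildtype libraries were fitted. The mutant count was 14 without mutant replicate 2, 20 without mutant replicate 1, 18 and 20 without wildtype replicates 1 and 2, and 0 with mutant libraries alone. The difference between genotypes in this interval passed for 0 of 40 genes and for 0 of all genes with edgeR (0 members at an unadjusted p under 0.05, and 0 with DESeq2 and limma-voom).

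Split at day 10, the fall had medians of -0.45 from day 8 to day 10 and -0.53 from day 10 to day 12 over both genotypes. The lines split it differently. The median changed by -0.45 and then -0.38 in wildtype replicate 1 and by -0.61 and then -0.46 in wildtype replicate 2. In mutant replicate 1 it changed by -0.39 and then -0.66, and in mutant replicate 2 by -0.27 and then -0.71. The first step was thus the larger in both wildtype lines and the second in both mutant lines, and this difference between genotypes was not tested. With all 4 lines fitted together, 6 of 40 genes were called lower in the first step (background 0.0583%, or 9 genes in all), namely Ccnb1, Bub1b, Kif20a, Racgap1, Top2a and Tpx2. For the second step 19 of 40 were called lower (background 0.389%, 60 genes), led by Kif23, Birc5, Cdc20, Ccna2 and Plk1. Every day 10 value lay below every day 8 value in 25 genes (3.04% of tested genes), and every day 12 value below every day 10 value in 33 (3.45%). Blocking on the line raised the first count of calls to 14. Both counts of calls moved with the lines in the fit. Each was 0 without wildtype replicate 1 and 0 without wildtype replicate 2. Without mutant replicate 1 they were 4 and 26, and without mutant replicate 2 they were 1 and 6.

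By fitted value, genes differed in which step held most of the fall, and differences between genes were not tested. Cenpf was at 22.9, 32.4, 26.9 and 35.7 CPM at day 8 (wildtype replicates 1 and 2, mutant replicates 1 and 2), at 12.7, 19.4, 12.2 and 17.5 at day 10 and at 18.5, 13.9, 13.3 and 15.6 at day 12. Its 2 steps were -0.93 (SE 0.20) and -0.01 (SE 0.20), and wildtype replicate 1 and mutant replicate 1 were higher at day 12 than at day 10. Cenpe, with steps of -0.81 and -0.17 (SE 0.16 each), was alike. Cdc20 did the reverse, at 36.4, 30.0, 26 and 27.7 CPM at day 8, 23.7, 22.0, 25.7 and 29.9 at day 10 and 15.6, 15.0, 12.8 and 10.4 at day 12 (steps -0.24 and -0.92, SE 0.11 each). In mutant lines its day 10 level was thus near the day 8 level. Ube2c (-0.31, then -1.04, SE 0.16 each) and Plk1 (-0.33, SE 0.11, then -0.94, SE 0.12) had the same order in these means over both genotypes. Ccnb1 (-0.67, then -0.57, SE 0.09 each) and Bub1b (-0.48, then -0.46, SE 0.07 each) had near equal mean steps. Single lines differed. In wildtype replicate 1 Ube2c changed by -1.1 and then -0.56, and Plk1 and Cdc20 each by -0.62 and then -0.6, while the other lines kept the mean order. Bub1b changed by -0.72 and then -0.3 in wildtype replicate 1 but by -0.28 and then -0.64 in mutant replicate 2. For Ccnb1 these were -0.77 and -0.37, and -0.45 and -0.75. A contrast of the 2 steps, added after the values by day had been seen, passed for 0 of 40 members and 0 of all genes with edgeR (smallest adjusted p among members 0.431, for Cdc20). At an unadjusted p under 0.05 it held 9 members (Ccna2, Plk1, Cdca8, Cenpe, Cenpf, Spc24, Cdc20, Ube2c and Kif23) and 9.79% of all genes, and DESeq2 called 0 members.

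**Figure D3:**
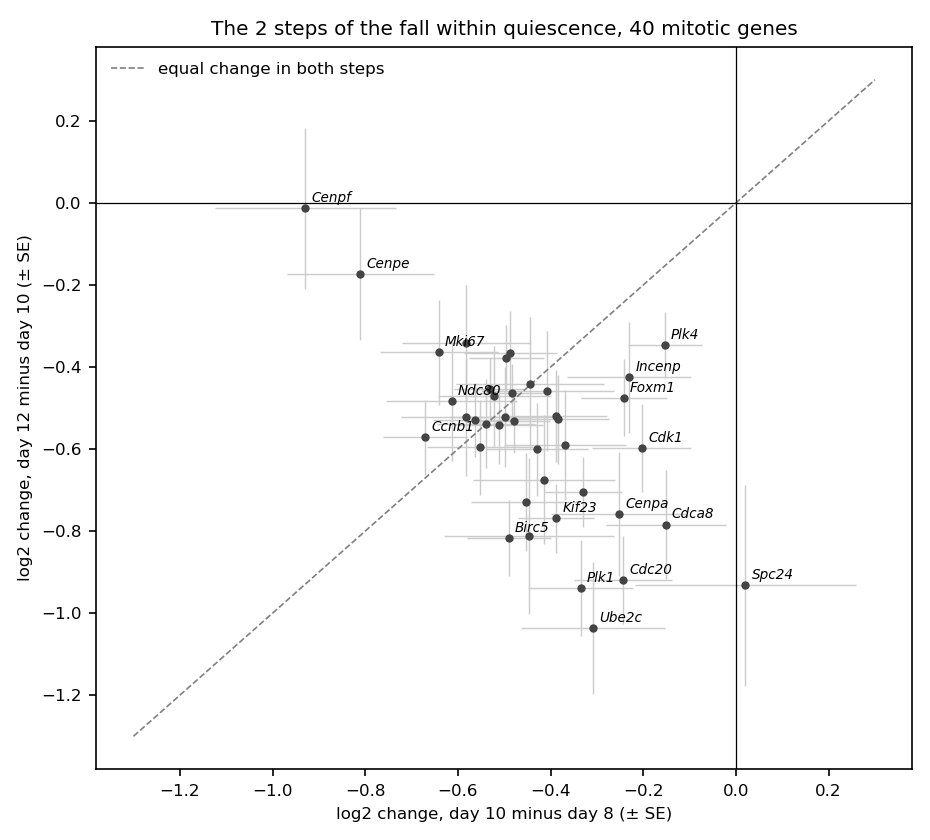
Log2 change from day 8 to day 10 (x axis) against that from day 10 to day 12 (y axis), means over both genotypes with SE bars, for the 40 genes. Cenpf and Cenpe lie above the dashed line of equal change and Ube2c, Cdc20 and Plk1 below it.

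The steps were also read line by line. From day 10 to day 12 all 40 genes were lower in wildtype replicate 2 and mutant replicate 2, and 38 in each of the other lines, with Cenpa and Cenpf higher in wildtype replicate 1 and Cenpe and Cenpf higher in mutant replicate 1. From day 8 to day 10, 40 were lower in wildtype replicate 1, 39 in wildtype replicate 2 (all but Spc24), 36 in mutant replicate 1 and 31 in mutant replicate 2. The 9 that were higher at day 10 in mutant replicate 2 were Cdk1, Ccnb2, Aurkb, Incenp, Cdca8, Cenpa, Spc24, Cdc20 and Ube2c, and Cdca8, Cenpa, Spc24 and Ube2c were also higher in mutant replicate 1. A fall at every step in each of the 4 lines was held by 29 of 40 genes, against 1.27% of tested genes.

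Between genotypes no gene of the set passed at either state. Plagl1 itself was at 37.7 to 231 CPM in wildtype and 7.60 to 60.3 CPM in mutant libraries and was lower in both mutant than in both wildtype lines at each day. At day 2, 35 of 40 genes had a lower fitted level in mutant lines, with a median log2 difference of -0.14, where 49.1% of all tested genes were lower. In the quiescent sums 36 of 40 had a higher one, with a median of 0.07, where 45.2% of all tested genes were lower. The 40 genes share libraries, so such counts are not made of separate observations. The sums weight each harvest by its depth, and the day 12 libraries of the mutant lines held 32031720 and 37207510 counts against 55575315 and 54325235 in wildtype. With the 3 quiescent days weighted equally, an alternative added after the data were seen, the direction turned. Then 27 of 40 genes were lower and 13 higher in mutant lines (median -0.03), and 23 genes had changed sign, among them Top2a, Ccnb1, Birc5 and Cdc20. That fit called 0 of 40 with edgeR, 0 also at an unadjusted p under 0.05. With edgeR 0 of 40 passed in each, where 0.00635% of tested genes (1 gene) passed in each, and the smallest adjusted p was 1.00. At an unadjusted p under 0.05 there were 0 members in each, against 451 and 76 of all genes, and DESeq2 and limma-voom called 0 members. SE ran from 0.09 to 0.23, so differences of this size were not detectable with 2 lines a group.

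The smallest p at day 2 was that of Kif11, at 97.6 and 85.0 CPM in wildtype and 83.3 and 66.4 in mutant lines (log2 -0.29, SE 0.14, edgeR adjusted p = 1.00). Cdk1 was at 226 and 202 CPM in wildtype and 176 and 193 in mutant lines (-0.22, SE 0.12), and Prc1 at 224 and 199 in wildtype and 195 and 169 in mutant lines (-0.22, SE 0.12). For these 3 genes both mutant lines lay below both wildtype lines, a pattern that 11.8% of tested genes held at day 2. At quiescence the smallest p were those of Cenpa (log2 0.23, SE 0.17), Cdca3 (0.21, SE 0.16) and Racgap1 (0.14, SE 0.11). Cenpa was at 8.38 and 9.15 CPM in wildtype and 10.8 and 9.74 in mutant sums, and its difference was -0.013 with day 10 left out of the sums. With equal weights Cenpa, Cdca3 and Racgap1 gave 0.077, 0.132 and 0.029.

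In the same sums the fitted fall at quiescence was smaller in mutant than in wildtype lines for 39 of 40 genes, with a median difference of 0.21, and 0 passed the test of that difference (background 0 of 15740 genes). Over all tested genes that difference was below 0 in 48%. With the quiescent days weighted equally the fall was smaller for 35 of the 40 genes and larger for 5, with a median of 0.11, and 0 passed. Against each line's own day 2 level, the median gene at day 12 stood at 15.8% and 16.5% in wildtype and at 15.2% and 15.5% in mutant lines, lower in both mutant lines. The smallest p were those of Cdk1 (0.36, SE 0.17), Tpx2 (0.23, SE 0.13) and Prc1 (0.30, SE 0.18), each at an edgeR adjusted p of 1.00 and an unadjusted p above 0.05. This difference combines the same day 2 and quiescent values as the 2 comparisons above and adds no separate evidence. DESeq2 and limma-voom called 0 members here as well.

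By day, the sign of the genotype difference changed. Of the mean CPM of the 2 lines, 35 of 40 genes were lower in mutant lines at day 2 (median log2 -0.15), 29 at day 8 (-0.06), 12 at day 10 (0.13) and 36 at day 12 (-0.13). At day 10, Ube2c was at 12.7 and 13.0 CPM in wildtype and 20.1 and 18.4 in mutant lines, and Cdk1 was at 42.4 and 44.5 and at 50.1 and 59.5. By day 12, Ube2c was at 8.61 and 7.30 in wildtype and 8.60 and 6.18 in mutant lines, and Cdk1 at 32.3 and 34.3 and at 26.1 and 36.4, so that the genotypes overlapped. Both mutant lines were above both wildtype lines at day 10 in 18 of 40 genes (22.7% of tested genes) and below both at day 12 in 18 (11.6%). Both were below at day 2 in 12 (11.8%) and at day 8 in 11 (17.8%). The difference within a day was not tested.

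**Figure D4:**
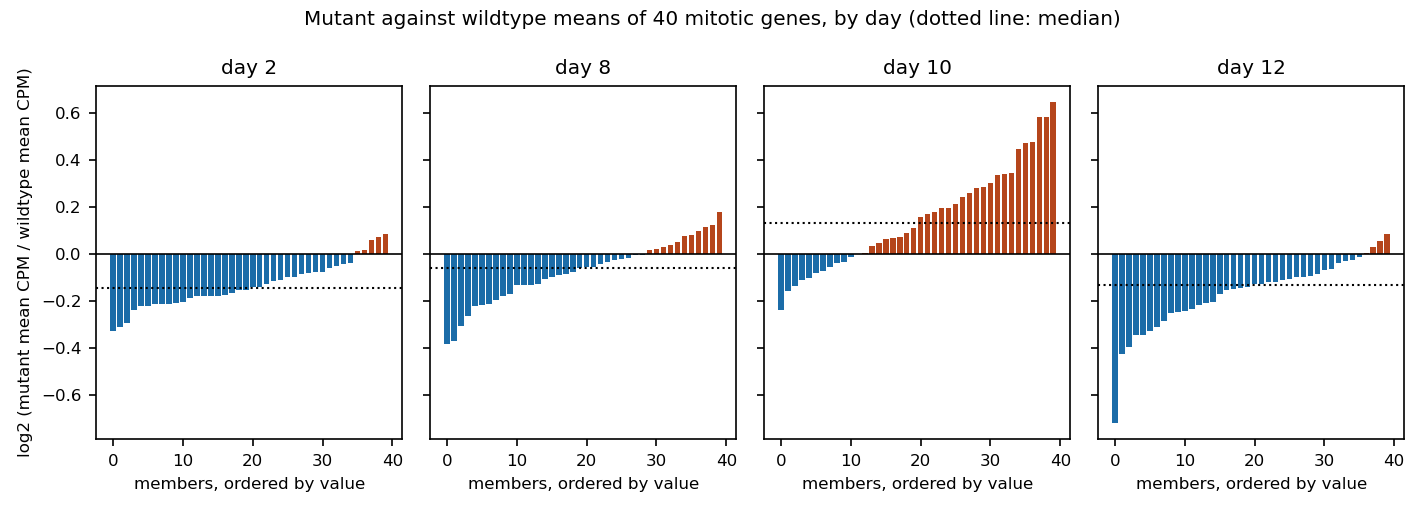
Log2 ratio of mutant to wildtype mean CPM (y axis, n = 2 lines each) of the 40 genes, ordered by value within each day (x axis), with the median as a dotted line. Bars lie mostly below 0 at days 2, 8 and 12 and mostly above 0 at day 10, where the median was 0.13.

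Other genes of mitosis and of the cell cycle were read from lists of named genes. Of 88 further regulated mitotic genes, such as kinetochore, kinesin and condensin genes, 85 fell at quiescence in wildtype lines (median -1.84, background 23.7% of tested genes called lower). From day 8 to day 12, 62 fell (median -0.85, background 2.00%). The largest falls were those of Cep55, which recruits the abscission machinery (log2 -2.84, SE 0.16), Mybl2, which encodes B-Myb (-2.75, SE 0.17), and Trip13, the AAA-ATPase that remodels Mad2 (-2.54, SE 0.15). Psrc1, a spindle microtubule protein, rose slightly (0.27, SE 0.10, edgeR adjusted p = 0.0452), and Cenpc1 and the securin gene Pttg1 did not pass (-0.24, SE 0.18, and -0.21, SE 0.16).

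The constitutive genes of the APC/C moved far less by their median. Of 15 genes for APC/C subunits and its G1 activator, with a median of -0.14, 3 fell in wildtype lines, where 23.7% of all tested genes were called lower. These were Anapc15 (log2 -1.17, SE 0.12), Fzr1, the G1 activator (-0.51, SE 0.12), and Anapc1 (-0.30, SE 0.10), which was named after its value was seen. Cdc27, at -0.37 (SE 0.14, edgeR adjusted p = 0.0538), did not pass. From day 8 to day 12 0 of the 15 passed with edgeR, where 2.00% of tested genes were called lower. The median was -0.02, whereas the partners Cdc20 and Ube2c among the 40 fell in both intervals. Of 24 cohesin, gamma-tubulin and augmin genes 17 fell at quiescence (median -0.47, background 23.7%), with augmin subunits Haus5 (-1.78, SE 0.15), Haus6 (-1.72, SE 0.13) and Haus4 (-1.17, SE 0.15) lowest. From day 8 to day 12, 2 fell, Haus6 and Haus4 (background 2.00%).

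In the MuvB and DREAM list 8 of 12 genes fell (background 23.7%) and 1 rose (background 23.9%) at quiescence in wildtype lines (median -0.78). Mybl2, which is also in the mitotic list, fell most (-2.75), then Lin9, a MuvB subunit (-1.89, SE 0.17), and Tfdp1, the dimer partner of E2F proteins (-1.18, SE 0.09). Rbl2, the p130 pocket protein of DREAM, rose 1.72-fold (log2 0.78, SE 0.11, edgeR adjusted p = 0.000347), from 28.6 and 26.8 to 47.5 and 47.8 CPM, and stood at 43.7 to 51.9 CPM in all quiescent wildtype libraries.

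All 45 DNA replication genes fell at quiescence in wildtype lines (median -1.81, background 23.7%), led by Orc1 (-3.14, SE 0.17), Rrm2 (-2.94, SE 0.11) and Cdc6 (-2.71, SE 0.15). Their course after day 8 differed in size from that of the mitotic set. The median changed by -0.49 from day 8 to day 12, beside -1.01 for the 40 mitotic genes. It changed by -0.07 from day 8 to day 10, with 0 of 45 called, beside -0.45 with 6 of 40 called, and by -0.43 from day 10 to day 12, with 12 called, beside -0.53 with 19. The difference between the lists was not tested.

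**Figure D5:**
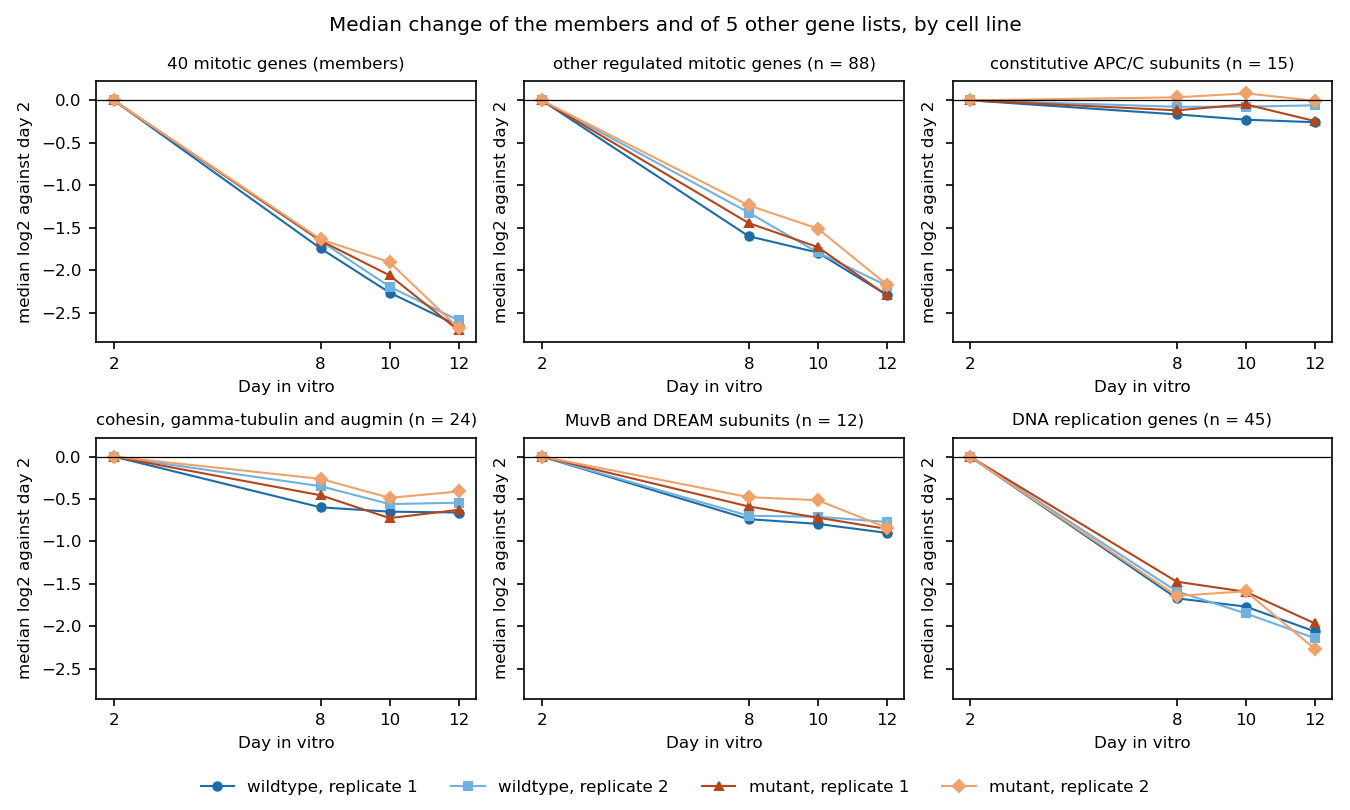
Median log2 level against day 2 (y axes) for the 40 genes and for 5 other lists, by day in vitro (x axes) and cell line (lines). The 40 genes end lowest, the other mitotic and the replication genes follow, and the constitutive APC/C subunits stay near 0.

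Cell identity and depth were read beside these results. Fibroblast markers were present in full (11 of 11 at 1 CPM or more in some library), with summed levels of 23400 to 26000 CPM at day 2 and 50200 to 66800 at day 12. Col1a1, Col1a2, Col3a1 and Fn1, matrix genes, make up most of that sum and rose, whereas Vim (log2 -0.71, edgeR adjusted p = 0.000688) and S100a4 (-1.28, adjusted p = 0.000692) fell in wildtype lines and Thy1 did not pass (-0.64, adjusted p = 0.254). Macrophage and blood markers (12 of 12 at 1 CPM or more) summed to 14.4 to 110 CPM at day 2 and 37.0 to 481 at day 12, highest in mutant replicate 1 and lowest in mutant replicate 2. The median of the 40 mitotic genes stood at 15.2% and 15.5% of day 2 in those lines at day 12. Any link between these markers and the mitotic genes was not tested. Cartilage markers (5 of 5) reached 425 CPM in mutant replicate 2 at day 12, against 69.0 to 167 in the other lines. Of the epithelial, endothelial and muscle lists, Epcam and Krt5 (epithelial), Pecam1 and Cdh5 (endothelial) and Myod1 and Myog (muscle) were under 1 CPM in every library, and Tie1 and Myf5 were at 0. Some other genes of these lists were expressed at day 2 and fell at quiescence beside the mitotic set. They include Krt18, at 8.44 to 11.8 CPM at day 2 (wildtype log2 -2.80), Kdr, at 11.5 to 15.7 CPM (-3.11), and Acta1, at 135 to 280 CPM (-2.39). By contrast, Cdh1 (epithelial) and Tek (endothelial) rose at quiescence in wildtype lines (log2 3.11, edgeR adjusted p = 0.0223, and 2.26, adjusted p = 0.00561). Their highest levels in any library were 2.83 and 4.35 CPM. The neural list (5 of 6 at 1 CPM or more) summed to 403 to 469 CPM at day 2 and 96.1 to 137 at day 12, nearly all of it Nes (-1.84). Their part in the mitotic result was not tested. The total count was 28079241 to 61039793 per library, at which 3 counts equal 0.0491 to 0.107 CPM, well under every level printed for the 40 genes.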

How the data were processed

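Whole-number read counts per gene for 23100 genes, deposited by the authors and not normalized, were used as given. Per the labels' protocols, stranded libraries were made from DNase-treated total RNA, and the submitters' processing notes name build mm9 with HTSeq 0.6.1p1, Bowtie2 2.2.9, TopHat2 2.1.1 and bcl2fastq 2.18. How HTSeq treated strand, and with which annotation, is not given in the sources used here; values of overlapping or near-identical genes are uncertain. The mutant lines' title code was not expanded. No row lacked a gene name.

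From the deposited counts, CPM were computed after TMM scaling. Comparisons of state and genotype used 8 summed libraries (15740 genes after filterByExpr, 4 residual degrees of freedom), and comparisons of days used 16 libraries (15439 genes, 8 residual degrees of freedom), fitted with edgeR 4.0.16 in R 4.3.3 (quasi-likelihood, robust). P-values were Benjamini-Hochberg adjusted over all genes tested and called under 0.05, and SE is the absolute log2 change over the square root of F. Repeat harvests of a line were counted as independent. The same line was harvested each day, so state and day comparisons are paired by design (correlation of line deviations 0.196 in wildtype and 0.248 in mutant lines). With 2 lines on each side, 0.333 is the smallest two-sided p of an exact permutation test. Libraries of a group differed by more than counting noise (chi-square per degree of freedom 34.1 to 73.1).

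The members, gene lists and tests were chosen with earlier results of these data known. In each role, the genes with the smallest p and the smallest change in wildtype lines are named, with the 5 largest falls from day 8 to day 12, the 3 smallest p between genotypes, the 3 largest falls and any rise in other lists, and Foxm1 and Mki67. Other genes are named to account for the set or were chosen after their values were seen. Alternatives were RLE and upper quartile scaling, DESeq2 1.42.0, limma-voom 3.58.1, other filters, a block on the line or number, a test against a 1.5-fold change, the libraries of a comparison alone, leaving out each line or quiescent day and, added after seeing the data, equal weights for the quiescent days, which the sums weight by depth. Scripts were tested on simulated data. Promoters are from RefSeq (GRCm38.p6), and no coordinates were taken from the count table.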

Additional observations from a re-analysis of the deposited data

How the results depend on the processing

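The 40 calls at quiescence in each genotype were made under all 17 alternatives, and 0 members passed between genotypes, in the difference of the state changes, in the genotype difference from day 8 to day 12 or in the contrast of the 2 steps under any alternative. Counts within quiescence depended on the setting. A test against a 1.5-fold change gave 16 of 40 for day 12 against day 8, 0 for each of its 2 steps, 0 in wildtype and 3 in mutant lines. The libraries of a comparison alone gave 0 for each step, 9 in wildtype and 0 in mutant lines. DESeq2 gave 25 for the first step and 32 for the second. With each line left out in turn, the counts ran from 27 to 39 for day 12 against day 8, from 0 to 4 and from 0 to 26 for its steps, from 0 to 34 in wildtype and from 14 to 20 in mutant lines. These fits had fewer samples, and a lone line was assumed to vary like the other groups. The line as a replicate block gave 14 for the first step and changed no other count of members by over 1.5 times. Over all tested genes, lines that share a letter across genotypes did not deviate together (correlation -0.0285 at day 2 and 0.0112 at quiescence). The block on the letters gave 0 members. That correlation was not computed for the 40 genes alone. At day 2 Top2a and Mki67 were higher in replicate 1 of each genotype, whereas Cdk1 differed in opposite directions. The median genotype difference at quiescence turned from 0.07 to -0.03 with the quiescent days weighted equally, an alternative chosen after seeing the data, which also gave a median fall of -2.24 in wildtype and -2.08 in mutant lines. Cenpa, higher in mutant lines at quiescence as reported, had a log2 difference of -0.013 without day 10. For Cenpf from day 10 to day 12 it ran from -0.258 without wildtype replicate 1 to 0.257 without wildtype replicate 2, and was 0.079 without mutant replicate 2. The cause was not tested. With 2 lines a group, the spread between lines and not depth limits these comparisons.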

Other observations

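Few genes of any kind passed between day 8 and day 10, and those that fell were mitotic. Of the 9 genes called lower with edgeR, 6 are among the 40 described above. The other 3, named after their values were seen, are in the list of 88 further mitotic genes. They were Casc5 (Knl1), the kinetochore scaffold that recruits Bub1 (log2 -0.87, SE 0.14, adjusted p = 0.0432), Aspm, a spindle pole protein (log2 -0.80, SE 0.12, adjusted p = 0.0376), and Arhgap11a, a RhoA regulator of cytokinesis (log2 -0.50, SE 0.08, adjusted p = 0.0432). Fbln7, which encodes the matrix protein fibulin 7, was the 1 gene called higher (log2 1.12, SE 0.18, adjusted p = 0.0432).

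Among the 10 smallest p-values for day 12 against day 8 the 3 genes outside the set were Ckap2l, a spindle protein (log2 -1.20, SE 0.10), 2810417H13Rik (log2 -1.21, SE 0.10) and Prr11 (log2 -1.01, SE 0.08), all lower at day 12. They were also chosen after their values were seen.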
